A study of Mus musculus with 20 samples.

Results

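The promoters described here belong to long non-coding RNA (lncRNA) genes whose starts lie more than 5 kb from that of every protein-coding gene. Of these starts, 296 lie inside a coding gene. They were chosen from the gene annotation and the read depth, without use of any methylation value. A promoter was taken as the window that reaches 1 kb to each side of the start of transcription (TSS), the 5′ end of the annotated gene in GENCODE M21. It was kept where the gene was autosomal and annotated as lincRNA, antisense or processed_transcript, where the TSS was more than 5 kb from the TSS of every protein-coding gene, and where at least 3 CpGs had at least 10 reads in all 20 libraries. These rules kept 925 promoters of the 15392 autosomal promoters that had enough CpGs. Of 8875 annotated autosomal lncRNA genes, 6860 lay more than 5 kb from a coding TSS and 1159 of those had any CpG at that depth. The 925 comprised 532 lincRNA, 289 antisense and 104 processed_transcript genes.

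The study asked whether an adverse maternal environment (AME), a Western-style diet of the dam combined with stress in late gestation, alters DNA methylation in the offspring's liver. Methylation had been read by reduced representation bisulfite sequencing (RRBS), in which the enzyme MspI cuts out CpG-rich fragments and bisulfite marks the cytosines that are unmethylated. The 20 libraries came from livers of wild-type C57BL/6J offspring labelled male, 5 per group, in 4 groups: AME-d21, offspring of AME dams at postnatal day 21; Con-d21, offspring of dams on the control diet without stress at day 21; AME-d0, AME offspring taken by Caesarean section at the end of gestation; and Con-d0, control offspring taken in the same way. The animals at d21 had been fasted for 5 h, so that age, birth, suckling and fasting cannot be told apart. The liver was ground whole, and a shift in the share of a cell type cannot be told apart from a change within cells.

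A lncRNA is a transcript without a long open reading frame, and many are known only from sequencing. Some act on chromatin or in the nucleus, some silence neighbouring genes of an imprinted cluster, and some are hosts from which small nucleolar RNAs or microRNAs are cut. Promoters rich in CpGs are mostly free of methylation in mammalian tissues, whereas CpG-poor promoters are mostly methylated outside the cells that use them. In late fetal life the mouse liver is also a site of blood formation, a role that it gives up after birth.

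The 7 stretches below hold tested CpGs of the 4 lncRNA promoters with the largest rise between Con-d21 and Con-d0 and of 3 among those with the largest falls, and are shown because the age comparison turns on them. Each is read 5′ to 3′ on the strand of the lncRNA from RefSeq GRCm38, the assembly of mm10, and capitals mark the tested CpGs. Gm5086 (chr13:97559736-97559903, plus strand, -235 to -68 from the TSS), Gm44956 (chr8:10971546-10971647, minus strand, -833 to -732) and Gm33994 (chr1:136579524-136579707, minus strand, -230 to -47, 7 of its 9 CpGs) lay outside coding genes. The stretch of Gm20531 (chr6:124732673-124732801, plus strand, 505 to 633) lay in exons of Ptpn6, a phosphatase of blood cells. Among the promoters that fell, Gm48882 (chr10:95318297-95318478, plus strand, 50 to 231) lay in an intron of Cradd and Gm16725 (chr8:18677928-18678118, minus strand, -62 to 128) in an intron of Mcph1. That of Gm20511 (chr11:103193081-103193194, minus strand, -298 to -185) lay in an exon of Fmnl1, and holds 11 CpGs.
Gm5086: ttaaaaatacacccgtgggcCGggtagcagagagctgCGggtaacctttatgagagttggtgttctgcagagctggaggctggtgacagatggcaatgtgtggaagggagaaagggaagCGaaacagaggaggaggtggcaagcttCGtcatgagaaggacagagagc
Gm44956: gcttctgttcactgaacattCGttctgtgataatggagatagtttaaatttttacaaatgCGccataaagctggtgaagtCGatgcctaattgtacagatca
Gm20531: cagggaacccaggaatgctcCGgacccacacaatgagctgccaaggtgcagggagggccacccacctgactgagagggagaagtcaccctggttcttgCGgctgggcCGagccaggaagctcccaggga
Gm33994: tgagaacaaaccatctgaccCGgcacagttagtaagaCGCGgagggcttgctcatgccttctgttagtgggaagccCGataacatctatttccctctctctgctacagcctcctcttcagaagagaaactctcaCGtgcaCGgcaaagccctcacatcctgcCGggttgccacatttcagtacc
Gm48882: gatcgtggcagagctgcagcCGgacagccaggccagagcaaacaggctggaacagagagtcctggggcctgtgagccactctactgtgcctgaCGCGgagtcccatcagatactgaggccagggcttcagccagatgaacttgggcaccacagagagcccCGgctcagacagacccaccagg
Gm20511: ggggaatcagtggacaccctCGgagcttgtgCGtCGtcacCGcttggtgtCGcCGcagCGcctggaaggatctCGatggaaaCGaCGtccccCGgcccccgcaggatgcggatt
Gm16725: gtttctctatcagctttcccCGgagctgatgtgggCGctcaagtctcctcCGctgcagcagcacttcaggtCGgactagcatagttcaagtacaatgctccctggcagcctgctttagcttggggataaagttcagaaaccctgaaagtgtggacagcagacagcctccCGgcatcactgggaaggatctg

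The next 4 stretches are shown as the other end of the range, lncRNAs with known roles whose promoters gave no call with age. Malat1 (chr19:5803242-5803426, minus strand, -754 to -570) is an abundant nuclear RNA. Kcnq1ot1 (chr7:143295550-143295638, minus strand, 911 to 999, within Kcnq1) and Airn (chr17:12741570-12741761, plus strand, 259 to 450, in an intron of Igf2r, 9 of its 13 CpGs) are transcribed from the paternal chromosome and silence imprinted neighbours. Meg3 (chr12:109540899-109541091, plus strand, -102 to 90) is transcribed from the maternal chromosome of an imprinted cluster, and its stretch crosses the TSS.
Malat1: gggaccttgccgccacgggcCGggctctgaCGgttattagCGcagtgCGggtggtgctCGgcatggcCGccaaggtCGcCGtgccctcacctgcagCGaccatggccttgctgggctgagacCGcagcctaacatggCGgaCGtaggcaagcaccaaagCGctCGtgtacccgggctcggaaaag
Kcnq1ot1: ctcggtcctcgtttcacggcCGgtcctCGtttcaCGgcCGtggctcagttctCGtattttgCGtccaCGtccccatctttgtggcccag
Airn: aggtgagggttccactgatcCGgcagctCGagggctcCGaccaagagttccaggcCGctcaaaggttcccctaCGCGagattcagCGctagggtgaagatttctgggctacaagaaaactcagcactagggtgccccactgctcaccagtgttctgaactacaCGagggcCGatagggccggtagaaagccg
Meg3: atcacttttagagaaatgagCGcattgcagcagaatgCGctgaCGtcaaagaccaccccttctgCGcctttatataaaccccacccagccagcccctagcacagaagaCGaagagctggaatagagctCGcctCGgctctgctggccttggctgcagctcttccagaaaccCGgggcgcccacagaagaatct

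The libraries held 23248139 to 45769589 reads summed over CpGs. AME-d21 replicate 4 went against its label as male. Its X-linked reads were 2.88 for each 100 autosomal ones (the other libraries had 1.4 to 1.55), and its share of reads on the short arm of Y was 16.2 ppm (the others had 168 to 216 ppm). AME-d0 replicates 1 and 3 had the lowest autosomal methylation, 30.1% and 29.3%, where the other AME-d0 libraries had 34.4% to 36.6% and the Con-d0 libraries 34.4% to 37.9%. The age counts in AME and the largest differences between AME and Con are also given without them. Without AME-d0 replicates 1 and 3 the mean over the 925 promoters was 37.7% ± 0.349 in AME-d0 (SD, n = 3), and with them 37.0% ± 1.16 (SD, n = 5). The 925 promoters had a median of 7 tested CpGs (range 3 to 136), 9779 distinct CpGs in all, and at least 30 reads in every library, with a median of 144 reads in the shallowest library. Windows overlapped at 54 promoters, which shared CpGs with another of the set, and 159 promoters lay within 5 kb of the start of some coding transcript other than the first of its gene. Several promoters named below are among them: Zeb2os (26 bp from such a start), CT485616.1 (69 bp), Gm11716 (413 bp), Gm20511 (584 bp), Gm20531 (603 bp), Gm11615 (995 bp) and Gm48882 (4718 bp). Where that distance is under 1 kb, the window also holds a start of a coding transcript. The TSS lay inside a protein-coding gene for 296 promoters and between coding genes for 629.

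These lncRNA promoters, which lie over 5 kb from a coding TSS, had a higher mean methylation than coding promoters in every group. The mean over the 925 promoters was 42.2% ± 0.215 in AME-d21, 42.3% ± 0.293 in Con-d21, 37.0% ± 1.16 in AME-d0 and 38.0% ± 0.714 in Con-d0 (n = 5 each, SD). Over the 11038 coding promoters tested the means were 6.57% ± 0.0355, 6.55% ± 0.0653, 5.54% ± 0.182 and 5.73% ± 0.103 in the same order of groups. The 1211 lncRNA promoters within 5 kb of a coding TSS averaged 7.43%, 7.44%, 6.25% and 6.47%. The sets differ in CpG density. Each window was classed by its sequence: high where some 500-bp stretch held at least 55% G and C and at least 0.75 of the CpGs expected from its base content, low where no stretch reached 0.48 of them, and intermediate otherwise. By this rule 26.9% of the lncRNA promoters were high (249), 46.8% intermediate (433) and 26.3% low (243).

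Within a class the lncRNA promoters were still more methylated than the coding promoters. In the intermediate class they averaged 49.7% in AME-d21, 49.6% in Con-d21, 43.1% in AME-d0 and 44.0% in Con-d0, where the 1851 coding promoters averaged 16.6%, 16.5%, 14.2% and 14.6%. In the low class the lncRNA promoters averaged 66.0%, 66.3%, 58.5% and 60.7% in these groups, and the 449 coding promoters 55.5%, 55.3%, 47.1% and 48.8%. All 1283 low-density promoters averaged 67.3%, 67.2%, 58.5% and 60.2%, close to the lncRNA promoters. In the high class the lncRNA promoters averaged 6.15%, 6.07%, 5.36% and 5.58%, and the 8738 coding promoters 1.95%, 1.94%, 1.57% and 1.63%. All 3389 intermediate promoters averaged 34.3%, 34.2%, 30.1% and 30.7%. All 10720 promoters of the high class averaged 2.52%, 2.51%, 2.10% and 2.18%. These totals hold coding, lncRNA and other genes. The other genes were not averaged apart, so the higher level cannot be called particular to lncRNA promoters. The share of lncRNA promoters above 80% methylation was 26.3% in AME-d21, 26.1% in Con-d21, 11.1% in AME-d0 and 13.8% in Con-d0, while the share below 20% stayed between 41.7% and 43.8%. The group at d21 thus held more fully methylated promoters, at the expense of those between 20% and 80%. The plot of levels by CpG density shows this shift in the low and intermediate classes.

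**Figure D1:**
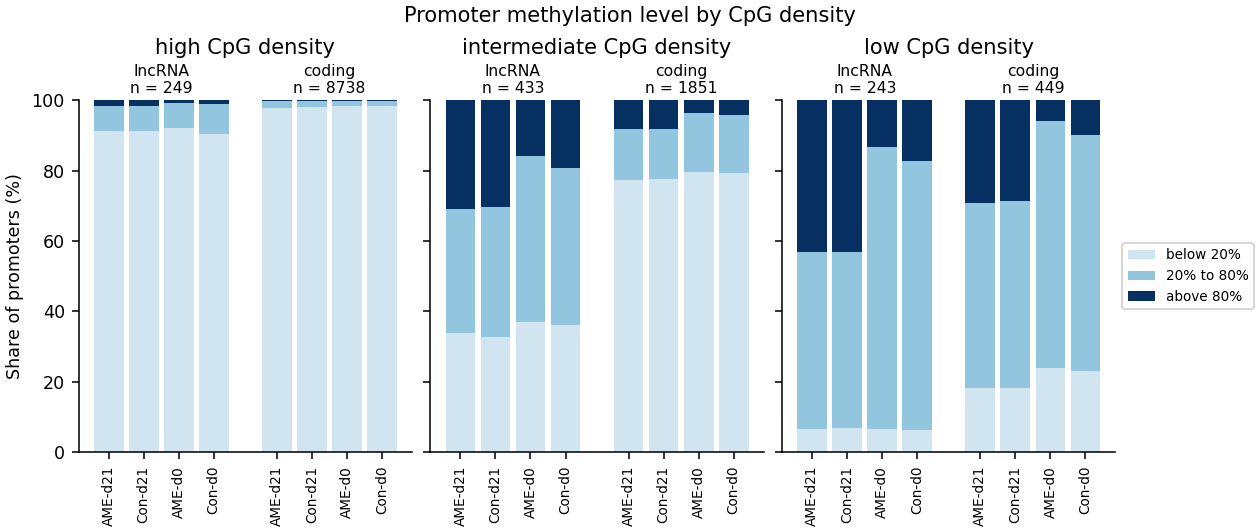
Share of promoters (y axis, %) below 20%, from 20% to 80% and above 80% methylation in AME-d21, Con-d21, AME-d0 and Con-d0, for lncRNA promoters more than 5 kb from a coding TSS and for protein-coding promoters, in 3 classes of CpG density. In the low class 43.2% of lncRNA promoters were above 80% in AME-d21 and in Con-d21, against 13.2% in AME-d0 and 17.3% in Con-d0.

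The level also differed with position within the window and with repeats. In intermediate promoters of Con-d21 the CpGs within 200 bp upstream of the TSS averaged 35.2%, and those 800 to 1000 bp upstream 51.9%. In Con-d0 the same bins averaged 29.4% and 45.6%. Downstream the level did not climb to the edge of the window, since the CpGs 800 to 1000 bp downstream averaged 36.9% in Con-d21 and 31.4% in Con-d0. The 513 CpGs that lay in repeats averaged 58.5% ± 0.672 in AME-d21 and 59.0% ± 0.308 in Con-d21, against 52.5% ± 1.5 in AME-d0 and 53.6% ± 0.857 in Con-d0 (5 libraries each, SD). The 9266 CpGs outside repeats averaged 23.1% in both groups at d21, 19.9% in AME-d0 and 20.6% in Con-d0, so that both kinds of CpG were higher at d21.

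Between Con-d21 and Con-d0, 304 of the 925 lncRNA promoters rose and 64 fell. Of these, 179 rose and 49 fell by at least 10 percentage points. Calls were made with limma on the log2 ratio of methylated to unmethylated reads, fitted over all 15392 promoters, at a Benjamini-Hochberg adjusted p under 0.05. Over all promoters the background was 17.7% higher and 3.68% lower, and 6.3% higher and 1.33% lower with 10 points or more. The lncRNA promoters stood at 32.9% higher and 6.92% lower, and at 19.4% and 5.30% with 10 points or more. Most of the background is coding promoters, 11038 in number, of which 13.2% rose and 3.50% fell. Promoters of other gene types were not counted apart, so the larger shares cannot be called particular to lncRNA promoters. The median difference was 2.46 points over the lncRNA promoters and 0.0393 points over all promoters.

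Between AME-d21 and AME-d0, which share no library with the control comparison, 343 lncRNA promoters rose and 53 fell, 233 and 43 of them by at least 10 points. The background was 19.4% higher and 3.16% lower, and 7.86% and 1.1% with 10 points or more. Without AME-d0 replicates 1 and 3, 223 rose and 46 fell, and 222 of the 343 rises and 45 of the 53 falls were still called, and each of the 343 and 53 differences kept its sign. Without AME-d21 replicate 4, 324 rose and 50 fell. A total of 261 rises were called in both comparisons, 76.1% of those in AME and 85.9% of those in Con, as were 44 falls, 83.0% of those in AME and 68.8% of those in Con. No lncRNA promoter was called in opposite directions. The overlap was not counted over all 15392 promoters, so it cannot be called particular to lncRNA promoters.

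**Figure D2:**
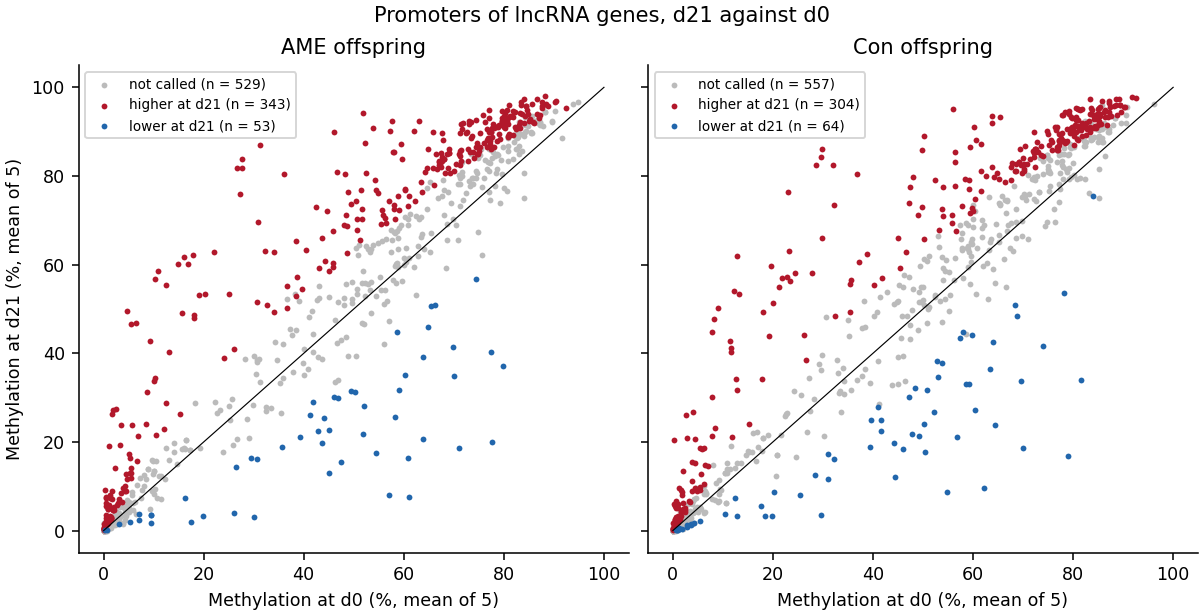
Mean methylation at d21 (y axis, %) against d0 (x axis, %) of the 925 lncRNA promoters in AME offspring (left) and Con offspring (right), 5 libraries per mean, with promoters that rose in red, fell in blue and were not called in grey, and the diagonal as a line. Rises numbered 343 in AME and 304 in Con, and falls 53 and 64.

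The share of promoters called differed with CpG density and with the level at d0. In Con, 41.2% of the low-density lncRNA promoters rose and 11.1% fell, against 39.4% and 11.4% of the 449 low-density coding promoters and 45.8% and 8.34% of all 1283 low-density promoters. In the intermediate class the shares were 38.8% and 5.54% for lncRNA promoters and 21.4% and 5.62% for coding promoters, and in the high class 14.5% and 5.22% against 10.1% and 2.64%. Among the 400 lncRNA promoters between 20% and 80% in Con-d0, 139 rose and 45 fell. Of the 128 above 80%, 76 rose and 2 fell, and of the 397 below 20%, 89 rose and 17 fell. At the same levels in Con-d0, 30.5% of 727 coding promoters between 20% and 80% rose and 12.4% fell, against 34.8% and 11.3% of the lncRNA promoters. Above 80% the shares were 59.4% and 1.56% of lncRNA promoters and 56.7% and 2% of 150 coding promoters, and below 20% they were 22.4% and 4.28% of lncRNA promoters and 11.3% and 2.88% of 10161 coding promoters. The difference between the sets at a given level was not tested.

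The largest rises took promoters that were mostly unmethylated at d0 to mostly methylated at d21. Gm5086, a lincRNA on chromosome 13, stood at 83.0%, 85.2%, 86.2%, 96.7% and 79.2% in the Con-d21 libraries, against 41.7%, 33.6%, 18.5%, 29.7% and 25.9% in the Con-d0 libraries. No Con-d21 library overlapped the Con-d0 range, and the difference was 56.2 points (log2 ratio 3.98 ± 0.46 SE, adjusted p = 5.35e-05 by limma). In AME the difference was also 56.2 points (adjusted p = 8.48e-06). Lncenc1, a lincRNA of embryonic stem cells, lies nearby on chromosome 13 (TSS 97434970, where that of Gm5086 is at 97559971) and averaged 73.5% ± 4.34 in Con-d21 and 32.2% ± 2.83 in Con-d0 (SD, n = 5 each), a rise of 41.3 points (adjusted p = 1.39e-05).

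Gm44956, a lincRNA on chromosome 8, had 83.3%, 83.3%, 87.5%, 91.2% and 76.5% in Con-d21 and 23.8%, 26.7%, 19%, 40.4% and 38.2% in Con-d0, over 3 CpGs with at least 36 reads in sum per library. The groups lay wholly apart, with a difference of 54.8 points (log2 ratio 3.60 ± 0.36 SE, adjusted p = 1.64e-05) in Con and of 55.7 points in AME (adjusted p = 3.19e-06). Its nearest coding TSS, 37644 bp away, is that of Irs2, which passes the insulin signal on from its receptor. On the same strand, 42118 bp from Gm44956, lay the promoter of 3930402G23Rik, which moved the other way. That promoter had 9.09%, 19.4%, 16.2%, 6.32% and 9.65% in Con-d21 and 38.2%, 53.9%, 45.0%, 48.3% and 37.0% in Con-d0. Its groups did not overlap either, and it fell by 31.9 points in AME (adjusted p = 0.000272) and by 32.3 points in Con (adjusted p = 0.000180).

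Gm20531, an antisense gene within Ptpn6, had 82.5%, 80.3%, 88.6%, 80.4% and 80.8% in Con-d21 and 30.2%, 29.8%, 27.5%, 21.5% and 34.3% in Con-d0. It rose by 55.2 points in AME (adjusted p = 5.44e-06) and by 53.8 points in Con (log2 ratio 3.51 ± 0.27 SE, adjusted p = 3.03e-06), with no overlap between ages. Ptpn6 encodes a tyrosine phosphatase that restrains signalling in blood cells. The 3 CpGs are also exonic positions of Ptpn6, so that they cannot be assigned to the lncRNA alone.

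Gm33994 and Gm19705 lie on either side of Zfp281, which encodes a zinc finger regulator of pluripotent cells, 45424 and 45868 bp from its TSS. Gm33994 had 72.2%, 81.0%, 77.8%, 71.4% and 79.1% in Con-d21 and 13.6%, 17.1%, 29.5%, 25.8% and 29.4% in Con-d0, a rise of 53.2 points (log2 ratio 3.47 ± 0.32 SE, adjusted p = 1.05e-05). Gm19705 had 16.7%, 22.2%, 22.4%, 21.2% and 23.8% in Con-d21 and 46.0%, 47.2%, 47.1%, 52.7% and 52.5% in Con-d0, a fall of 27.8 points (log2 ratio -1.83 ± 0.23 SE, adjusted p = 0.000106). The ages did not overlap at either promoter. In AME the differences were 48.8 points for Gm33994 (adjusted p = 1.41e-05) and -23.8 points for Gm19705 (adjusted p = 0.000459).

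The other promoters among the 8 largest rises in Con were Gm10287 (50.5 points), Gm11615 (49.2 points), 1700049E22Rik (43.7 points) and 3300005D01Rik (42.0 points), with adjusted p of at most 9.22e-05. Each of them also rose in AME, by 54.3, 46.6, 44.3 and 47.6 points. Gm11615 is an antisense gene whose 5 CpGs lie in exons of Wnk4, a kinase that regulates ion transport. Gm48433, a lincRNA that was among the 8 largest rises in AME, stood at 61.7% ± 3.69 in AME-d21 and 16.1% ± 2.42 in AME-d0 (SD, n = 5 each; adjusted p = 2.62e-06) and rose by 35.1 points in Con.

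**Figure D3:**
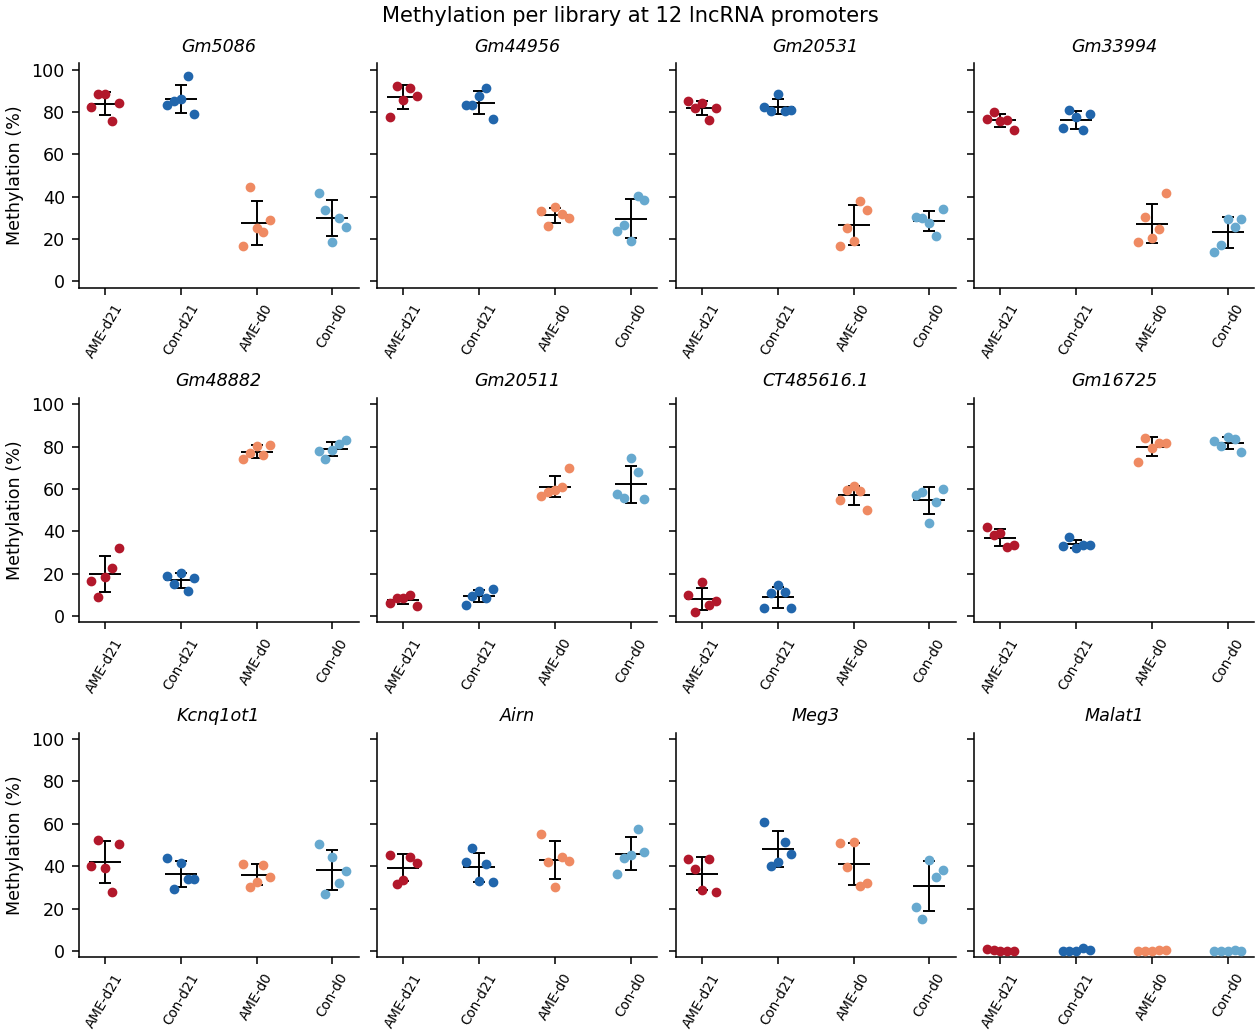
Methylation (y axis, %) of 12 lncRNA promoters in the AME-d21, Con-d21, AME-d0 and Con-d0 libraries, each point 1 library and the bars the mean ± SD of 5. The top row shows 4 rises with age (Gm5086 averaged 86.1% in Con-d21 and 29.9% in Con-d0), the middle row 4 falls (Gm48882 averaged 16.9% in Con-d21 and 78.9% in Con-d0) and the bottom row 3 imprinted lncRNAs at intermediate levels and Malat1, below 2% in all libraries.

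The largest fall was that of Gm48882, an antisense gene within Cradd, an adaptor protein of cell death signalling. It had 19.1%, 15.0%, 20.6%, 11.8% and 18% in Con-d21 and 77.8%, 74.4%, 78.2%, 81.2% and 83.0% in Con-d0. The ages lay wholly apart, with a difference of -62.0 points (log2 ratio -4.17 ± 0.26 SE, adjusted p = 8.35e-07 by limma). In AME the difference was -57.8 points (adjusted p = 5.44e-06), again without overlap, from 9.22% to 32.3% in AME-d21 and from 74.1% to 80.9% in AME-d0.

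Gm20511, an antisense gene within Fmnl1, a formin that shapes actin in blood cells, had 5.24%, 9.30%, 12.1%, 8.46% and 12.6% in Con-d21 and 57.5%, 55.7%, 74.9%, 67.9% and 55.5% in Con-d0. Its 11 CpGs lie in coding exons of Fmnl1 and were all lower at d21, as the plot of single CpGs shows. The difference was -53.5 points in AME (adjusted p = 5.20e-07) and -52.8 points in Con (log2 ratio -4.02 ± 0.34 SE, adjusted p = 5.53e-06).

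Gm16725, antisense within Mcph1, a gene of brain growth and DNA repair, had 33.2%, 37.5%, 32.2%, 33.6% and 33.5% in Con-d21 and 82.7%, 80.2%, 84.5%, 83.5% and 77.3% in Con-d0. The ages were apart in both AME and Con, by -42.9 points in AME (adjusted p = 8.49e-06) and by -47.6 points in Con (log2 ratio -3.09 ± 0.23 SE, adjusted p = 2.90e-06).

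CT485616.1 (-45.9 points), Gm47595 (-40.7 points), Gm11716 (-35.8 points) and 9230111E07Rik (-35.7 points) were also among the 8 largest falls in Con, with adjusted p of at most 0.000109. In AME they fell by 48.9, 43.2, 44.6 and 35.2 points. CT485616.1 holds 18 CpGs in exons of Rasal3, a Ras regulator of blood cells, and belongs to the class of high CpG density, where a mean of 54.7% ± 6.29 in Con-d0 was far above the class mean of 5.58%. It averaged 8.80% ± 4.85 in Con-d21.

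Some neighbouring lncRNA promoters moved apart. At Onecut1, which encodes a transcription factor of liver and bile duct development, Gm28182 had 44.3%, 45.0%, 34.3%, 59.4% and 55.4% in Con-d21 and 7.87%, 4.07%, 11.4%, 8.67% and 8.85% in Con-d0. It rose by 41.3 points in AME (adjusted p = 3.13e-06) and by 39.5 points in Con (adjusted p = 2.36e-05), with no overlap. Gm20649, which starts 6922 bp away, and Gm16551, with which it shares its 14 CpGs, averaged 0.489% ± 0.378 in AME-d21, 0.468% ± 0.354 in Con-d21, 0.691% ± 0.589 in AME-d0 and 0.535% ± 0.356 in Con-d0 (n = 5 each, SD) and were not called.

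At Bdh1, an enzyme of ketone body metabolism, the promoters of Gm49736 and Gm15743 start 17309 bp apart and moved in opposite directions. Gm49736 had 13.2%, 22.7%, 13.8%, 17.2% and 21.6% in Con-d21 and 48.6%, 51.2%, 53.2%, 49.4% and 49.6% in Con-d0, a fall of 32.7 points (adjusted p = 4.53e-05). Gm15743, whose 33 CpGs lie within Bdh1, had 26.0%, 20.3%, 29.1%, 29.2% and 26.0% in Con-d21 and 4.41%, 2.56%, 2.36%, 2.0% and 2.28% in Con-d0, a rise of 23.4 points (adjusted p = 2.90e-06). The ages did not overlap at either promoter, and in AME the differences were -31.9 points for Gm49736 and 25.1 points for Gm15743. These loci, with those of Irs2, Onecut1, Zfp281, Lncppara and Lncenc1, were picked after their values had been seen.

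Lncppara, a processed_transcript named for the fatty acid sensor Ppara, had 28.7%, 33.9%, 29.8%, 20.9% and 25.9% in Con-d21 and 35.2%, 46.0%, 36.5%, 43.8% and 43.2% in Con-d0 over 13 CpGs. It fell by 13.1 points (adjusted p = 0.0313), and the highest Con-d21 library stood just below the lowest Con-d0 library. In AME it fell by 12.9 points (adjusted p = 0.0207). Gm49539, which starts 7533 bp away, rose by 6.21 points in AME (adjusted p = 5.84e-05) and by 6.89 points in Con (adjusted p = 0.000332), at means of 8.73% ± 1.54 in Con-d21 and 1.84% ± 1.0 in Con-d0 (SD, n = 5 each).

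**Figure D4:**
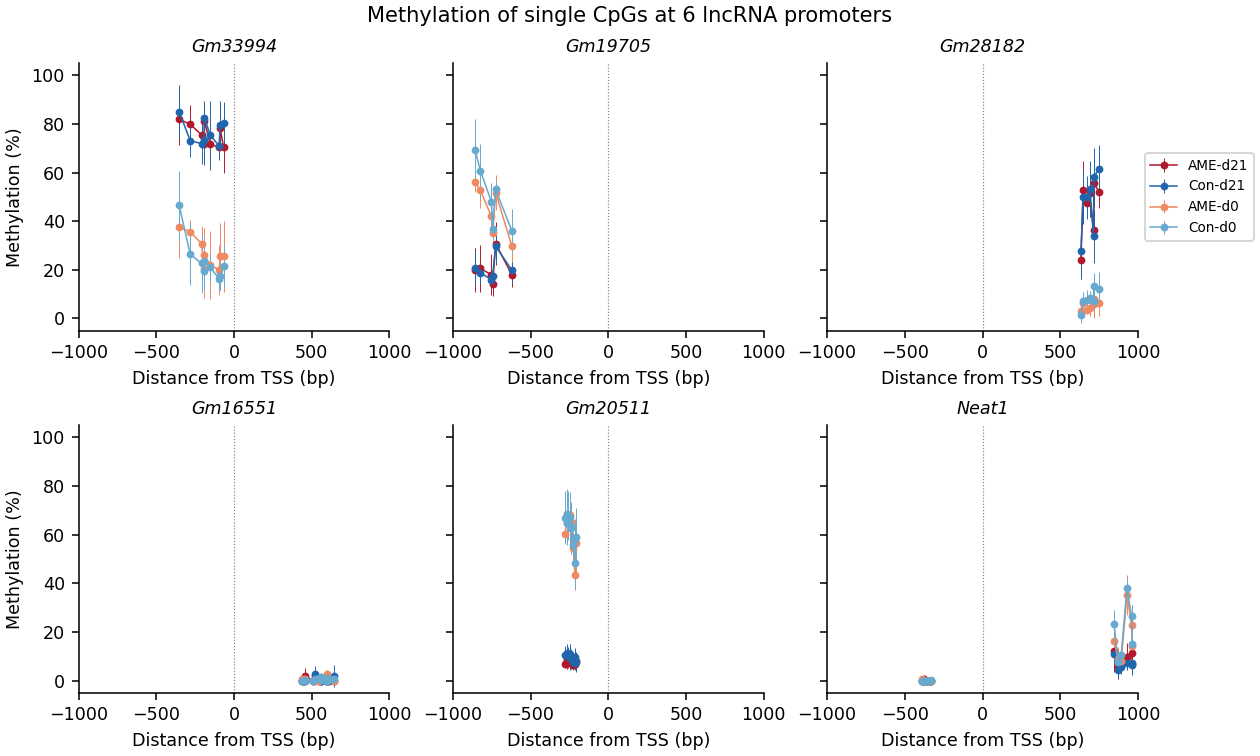
Methylation of single CpGs (y axis, %, mean ± SD of 5 libraries) against distance from the TSS (x axis, bp, negative upstream) at 6 lncRNA promoters in AME-d21, Con-d21, AME-d0 and Con-d0. All CpGs of Gm33994 and Gm28182 are higher and all of Gm19705 and Gm20511 lower at d21, those of Gm16551 stay near 0, and at Neat1 the downstream CpGs are lower at d21 while the upstream ones are near 0.

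Lists of known lncRNAs gave few calls, and most of their promoters were unmethylated. Over all promoters 17.7% rose and 3.68% fell in Con, and of those of high CpG density 10.4% and 2.72%. In lists this small, few calls cannot be told apart from these shares. Of 33 hosts of small nucleolar RNAs and microRNAs, 11 were measured, Snhg5, Snhg6, Snhg8, Snhg12, Snhg17, Snhg20, Dleu2, Mir9-3hg, Mir17hg, Mir124a-1hg and Mir155hg. All 11 were below 20% in every group and 10 below 2%. The one call was a rise of Mir9-3hg in Con, at 1.84% ± 0.302 in Con-d21 and 0.852% ± 0.369 in Con-d0 (SD, n = 5 each; adjusted p = 0.0155). With at least 20 reads per CpG its difference was 0.184 points and the call was lost (adjusted p = 0.774). The median difference in Con over the list was 0.0338 points, close to that over all promoters.

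Of 47 lncRNAs at homeobox and other developmental transcription factor genes, 6 were measured (Pantr2, Zeb2os, Dlx1as, Nkx2-2os, Tbx3os2 and Otx2os1), all below 20%, and 3 rose in Con, where 17.7% of all promoters rose. Dlx1as stood at 5.19% ± 0.812 in Con-d21 and 2.38% ± 0.793 in Con-d0, Nkx2-2os at 2.41% ± 0.887 and 0.708% ± 0.415, and Zeb2os at 0.368% ± 0.172 and 0.0817% ± 0.0858 (SD, n = 5 each; adjusted p = 0.0107, 0.00336 and 0.0140). The same 3 were called in AME, where 19.4% of all promoters rose. Leaving out AME-d0 replicate 3 took each just past the threshold (adjusted p = 0.0521, 0.0513 and 0.0537) and left the differences at 2.40, 1.17 and 0.203 points, against 2.69, 1.27 and 0.222 points with it. Within 500 bp of the TSS the Con rises of Nkx2-2os and Zeb2os were not called either (adjusted p = 0.0886 and 0.589). With at least 20 reads per CpG neither rise of Nkx2-2os was called (adjusted p = 0.287 in AME and 0.106 in Con). The quasi-binomial test called neither rise of Zeb2os (adjusted p = 0.161 in AME and 0.0503 in Con). All 13 CpGs of Nkx2-2os lie in exons of Nkx2-2, and 26 of the 29 CpGs of Zeb2os in exons of Zeb2. The 4 measured lncRNAs of blood cell genes (Lockd, Dleu2, Mir17hg and Mir155hg) and the 2 of liver genes (Gm16551 and AI463229) gave no call in any comparison. These are too few to set against the shares over all promoters.

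Among 8 widely expressed lncRNAs, Malat1 was nearly free of methylation. Its 14 CpGs had 0.983%, 0.236%, 0%, 0.185% and 0% in AME-d21, 0%, 0%, 0%, 1.18% and 0.446% in Con-d21, 0%, 0.185%, 0.135%, 0.608% and 0.651% in AME-d0 and 0.185%, 0.177%, 0%, 0.265% and 0.155% in Con-d0. All groups overlapped. Neat1, the scaffold of nuclear paraspeckles, starts 42806 bp from Malat1 and had 6.93%, 2.36%, 3.70%, 4.17% and 1.72% in Con-d21 and 12.2%, 7.99%, 10.5%, 8.21% and 12.9% in Con-d0. It fell by 6.58 points in Con (log2 ratio -1.64 ± 0.36 SE, adjusted p = 0.00485), without overlap, and the difference in AME was -4.26 points (adjusted p = 0.0635).

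The fall at Neat1 came from 6 CpGs that lie 846 to 964 bp downstream of the TSS. The CpG at 929 bp averaged 7.31% ± 2.72 in Con-d21 and 38.0% ± 4.53 in Con-d0 (SD, n = 5 each). The 8 CpGs upstream of the TSS were at or below 0.741% on average in every group, and in a 500-bp window, which keeps only those 8, the difference in Con was -0.0556 points (adjusted p = 0.985). Miat, a nuclear lncRNA that shares CpGs with Gm27357, was called in AME at 1.90% ± 0.519 in AME-d21 and 0.801% ± 0.192 in AME-d0 (SD, n = 5 each; adjusted p = 0.0109), a call lost without AME-d0 replicates 1 and 3, where the difference was 0.988 points against 1.10 with them (adjusted p = 0.0780). Its difference in Con was 0.880 points (adjusted p = 0.184), and the difference between its age changes in AME and Con was not called by limma (adjusted p = 0.999).

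The 3 measured imprinted lncRNAs stood at intermediate levels in every group and were not called in any comparison. Kcnq1ot1 had 40.3%, 52.6%, 39.1%, 27.8% and 50.5% in AME-d21, 43.8%, 29.1%, 41.3%, 34.0% and 33.8% in Con-d21, 41.2%, 30.3%, 32.3%, 40.7% and 34.9% in AME-d0 and 50.7%, 26.9%, 44.5%, 32.0% and 37.6% in Con-d0. Airn averaged 39.2% ± 6.42 in AME-d21, 39.4% ± 6.73 in Con-d21, 42.9% ± 8.84 in AME-d0 and 45.9% ± 7.73 in Con-d0 (n = 5 each, SD). All 4 groups overlapped at both promoters.

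Markers of liver cell types, measured at their own promoters in the same libraries, were called with age in some cell types and not in others. Over all promoters 19.4% rose and 3.16% fell in AME, and 17.7% and 3.68% in Con. The 3 measured hepatocyte genes F2, Pck1 and Fgb all fell in both comparisons, with a mean of 25.6% in AME-d21 (range of libraries 22.9% to 29.3%) and 24.2% in Con-d21 (19.3% to 30.5%), against 57.3% in AME-d0 (54.2% to 60.2%) and 61.3% in Con-d0 (59.8% to 62.0%). Of 7 measured genes of blood progenitors and myeloid cells (Cd34, Tal1, Csf3r, Kit, Pf4, Lyl1 and Myb), 5 rose in each comparison, with a mean of 21% in AME-d21 (19.3% to 23.0%) and 20% in Con-d21 (16.7% to 22.1%), against 4.65% in AME-d0 (3.67% to 5.47%) and 6.46% in Con-d0 (5.73% to 7.09%). This mean was carried by Csf3r, Pf4 and Lyl1, and Cd34, Tal1, Kit and Myb were at or below 1.18% on average in every group. Of 4 endothelial genes (Eng, Tie1, Kdr and Erg) 2 rose in AME and 3 in Con. Of 4 stellate cell genes (Des, Lrat, Reln and Pdgfrb), Des and Pdgfrb rose in both comparisons and Reln fell in Con. The Kupffer cell gene Adgre1 rose in Con (adjusted p = 0.0445) and was not called in AME. Of the erythroid genes Ank1 and Klf1, both at or below 2.05% on average, Klf1 was called in AME (0.417% in AME-d21 and 0% in AME-d0, adjusted p = 0.0372) and neither in Con, and the cholangiocyte genes Sox9 and Epcam gave no call. The part of the cell types in the age changes of lncRNA promoters was not tested.

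Short motifs were searched on both strands in the 250 bases before and 50 after the TSS. AGATAA, the core of GATA factor sites, was in 11.2% of the 179 promoters that rose by 10 points in Con, 8.16% of the 49 that fell, 8.98% of the 557 not called and 6.67% of all promoters tested. CAAAGTC, part of HNF4 sites, was in 2.23%, 6.12% (3 promoters), 3.77% and 3.40% of the same sets. TATAAA was in 9.95% and CCAAT in 34.1% of the 925 lncRNA promoters, against 7.95% and 36.4% of all promoters. The promoters that rose had a median of 33 CpGs in the window and those not called 47, so that the sets differ in base composition.

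AME itself gave no call at either age. From RRBS of these groups the paper reported many differentially methylated regions between AME and Con at both ages, most of them distal from TSSs. The unit and the threshold of those regions differ from the promoter sums used here, so the promoter calls do not test them. Of the 925 lncRNA promoters, limma called 0 between AME-d21 and Con-d21 and 0 between AME-d0 and Con-d0, as did a quasi-binomial test, where the background over all promoters was 0% in both comparisons. At an unadjusted p under 0.05 there were 31 of 925 (3.35%) at d21 and 43 (4.65%) at d0, against 810 (5.26%) and 819 (5.32%) of all 15392 promoters. The lowest adjusted p of an lncRNA promoter was 0.754 at d21 and 0.651 at d0. The median absolute difference was 0.925 points at d21 and 1.05 points at d0, where the age comparisons gave 5.44 points in AME and 4.86 in Con. Differences of 10 points or more between AME and Con were seen at 5 promoters at d21 (0.541%) and 9 at d0 (0.973%), against 258 (27.9%) with age in Con. Over all 15392 promoters such differences were seen at 19 (0.123%) at d21, 23 (0.149%) at d0 and 1286 (8.35%) with age in Con.

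**Figure D5:**
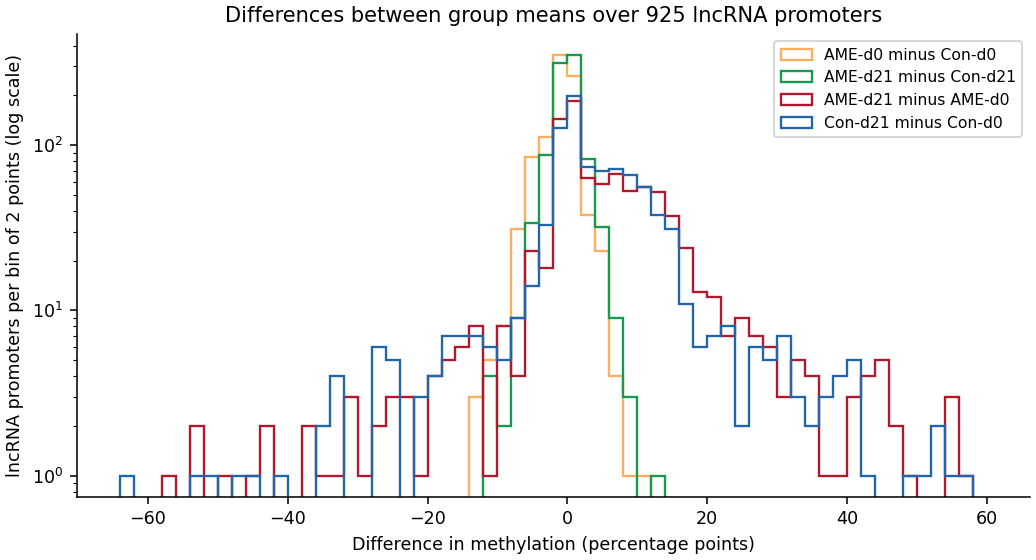
Number of the 925 lncRNA promoters (y axis, log scale) by difference between group means (x axis, percentage points, bins of 2 points) for AME-d0 minus Con-d0, AME-d21 minus Con-d21, AME-d21 minus AME-d0 and Con-d21 minus Con-d0. Differences between AME and Con end at 12.4 and -13.0 points, and those with age reach 56.2 and -62.0 points.

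The largest differences are given as values. At d21, Gm26519 had 61.2%, 61.6%, 60.2%, 72.0% and 59.3% in AME-d21 and 48.0%, 54.2%, 51.5%, 52.1% and 46.6% in Con-d21, over 3 CpGs. The difference was 12.4 points (adjusted p = 0.812) and the groups did not overlap. The library at 72.0% is AME-d21 replicate 4, whose X and Y reads go against its label, and without it the difference was 10.1 points (adjusted p = 0.783). Gm10369, antisense within Limk1, had 62.3%, 61.0%, 65.6%, 69.2% and 59.5% in AME-d21 and 70.9%, 76.1%, 79.1%, 70.0% and 80% in Con-d21, a difference of -11.7 points (adjusted p = 0.755), and -13.1 points without AME-d21 replicate 4 (adjusted p = 0.685). These groups did not overlap either, and at 0% called over all promoters neither difference was called.

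At d0, 4732490B19Rik had 38.7%, 50.4%, 30.4%, 41.9% and 27.5% in AME-d0 and 55.6%, 47.9%, 61.0%, 40.9% and 48.4% in Con-d0, a difference of -13.0 points (adjusted p = 0.914). Gm29678 averaged 52.9% ± 7.49 in AME-d0 and 65.2% ± 4.34 in Con-d0 (n = 5 each, SD; adjusted p = 0.914). The groups overlapped at both. AME-d0 replicates 1 and 3, the libraries of low overall methylation, were at 38.7% and 30.4% at 4732490B19Rik. Without both, the differences were -10.8 points at 4732490B19Rik and -11.5 points at Gm29678 (adjusted p = 0.997 each by limma).

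Meg3 was among the 2 largest differences in one direction at d21 and in the other at d0. It had 43.6%, 38.6%, 28.8%, 43.4% and 27.9% in AME-d21, 61.0%, 40.0%, 42.1%, 51.5% and 45.8% in Con-d21, 50.8%, 39.4%, 51.4%, 30.8% and 32.1% in AME-d0 and 20.9%, 15.2%, 43.1%, 35.1% and 38.3% in Con-d0. AME minus Con was -11.6 points at d21 (unadjusted p = 0.0432 by limma, adjusted p = 0.937) and 10.4 points at d0 (unadjusted p = 0.112, adjusted p = 0.955), and the groups overlapped at each age. The d0 difference rested in part on single libraries, at 6.56 points without Con-d0 replicate 2 and 3.59 points without AME-d0 replicates 1 and 3, and the d21 difference was -13.3 points without AME-d21 replicate 4. The age change was -4.45 points in AME and 17.5 points in Con, neither of them called, and without AME-d0 replicates 1 and 3 the value in AME was 2.34 points, on the other side of 0.

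Whether age acted differently in AME and Con offspring was tested as an interaction over all 20 libraries. Limma and the quasi-binomial test each called 0 lncRNA promoters, with a background of 0% over all promoters, and 34 of 925 (3.68%) had an unadjusted p under 0.05, against 776 (5.04%) of all. The lowest adjusted p was 0.601. The age change in AME minus that in Con was -22.0 points for Meg3 (-15.2 points without AME-d0 replicates 1 and 3) and -12.5 points for Gm10369, and 17 points for 4732490B19Rik and 14.4 points for Gm15941, the largest values in each direction. Gm15941 was called in Con (-16.0 points, adjusted p = 0.0208 by limma) and not in AME (-1.57 points, adjusted p = 0.731). That call was lost without Con-d0 replicate 2 or Con-d21 replicate 1. 4732490B19Rik was also called in Con alone (adjusted p = 0.0214), a call lost with the quasi-binomial test or without Con-d0 replicate 3, Con-d21 replicate 1 or Con-d21 replicate 2. It was at 35.8% ± 5.83 in AME-d21 and 37.8% ± 9.17 in AME-d0, against 31.8% ± 8.73 in Con-d21 and 50.8% ± 7.72 in Con-d0 (SD, n = 5 each).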

How the data were processed

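RRBS libraries of 20 mouse livers, 5 per group, were analysed. Groups and replicate numbers came from the sample labels. The authors deposited, for each CpG, raw counts of reads (methylated, unmethylated and total), not normalized, and the percent methylation, which is 100 times the methylated count over the total. Bismark, BWA, Trim Galore, FastQC and the build mm10 are named in the notes of the submitters. Versions, deduplication and strand merging are not given in the sources used here. PCR duplicates would make counts look more precise than they are.

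Autosomal positions that are a CG in GRCm38 were kept. Methylated and total counts were summed per promoter over CpGs that reached 10 reads in each of the 20 libraries, 1 kb on either side of the TSS of GENCODE M21, where at least 3 such CpGs lay. In R 4.3.3, limma 3.58.1 was fitted to all 15392 promoters on the log2 of (methylated + 1) over (unmethylated + 1), and p-values were adjusted by Benjamini-Hochberg, over the 10 libraries of a comparison, or all 20 for the interaction. Percentages and differences in points are means of library percentages. Tables were made with Python 3.11.15, numpy 2.4.6 and pandas 2.3.3, and figures with matplotlib 3.10.9. Sequences and repeats came from RefSeq GRCm38. The limma fit was tested on simulated data, with shifts larger than the AME minus Con differences named above and only at promoters of intermediate methylation. That test does not show how small a difference between AME and Con would be called.

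Named were the 8 called promoters with the largest rise and fall in each age comparison, the 2 with the largest difference in each direction where AME gave no call, and up to 6 members per list of lncRNAs, with others named as chosen after their values were seen. The text gives a part of these, and 1 locus is not reported here. The rule for the members used no methylation value, but the rule and the lists were set with earlier results of these data known. Alternatives were other coverage minimums, windows, CpG minimums, reads added, distances, tests, thresholds and depths, a replicate block, and leaving out single libraries. The study used 5 dams per group at each age, but the labels do not tie libraries to litters, so p-values measure the spread between these libraries.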

Additional observations from a re-analysis of the deposited data

Results flagged for a closer look

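Within each group of 5 libraries, a library was singled out when its gap to the next value was large for the whole range of the group, which chance alone gives in about 1 of 20 groups. AME-d21 replicate 4 stood apart with 2.88 X-linked reads for each 100 autosomal ones and 16.2 ppm of reads on the short arm of Y. Of 132 groups tested at named lncRNA promoters, 10 held such a library. In AME-d21 these were Gm26519 in replicate 4 (high, 72.0%), Gm48433 in replicate 2 (low, 55.4%) and Neat1 in replicate 1 (high, 10.3%). In Con-d21 they were Gm20531 in replicate 3 (high, 88.6%), Gm16725 in replicate 2 (high, 37.5%) and Gm47595 in replicate 5 (high, 33.1%). In AME-d0 they were 9230111E07Rik in replicate 2 (high, 78.6%) and Gm47595 in replicate 5 (low, 58.6%). In Con-d0 they were AI463229 in replicate 5 (high, 27.8%) and Gm26917 in replicate 2 (high, 15.1%). Gm26917 had 148682 to 302083 reads per library over 82 CpGs, where the median promoter had 144 in its shallowest library. Whether these reads come from several copies of the sequence was not tested. The mean over the 925 lncRNA promoters was high in Con-d0 replicate 5, at 39.3%.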

How the results depend on the processing

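The 10-read minimum, the window and the distance set which promoters are measured, so levels and counts hold for these promoters only. In the main fit 37.1% of 925 lncRNA promoters rose in AME and 32.9% in Con. With at least 20 reads per CpG, 488 were tested. Of these, 156 rose (32.0%) and 34 fell in AME, and 131 rose (26.8%) and 38 fell in Con. With at least 5 CpGs, 659 were tested. Of these, 210 rose (31.9%) and 31 fell in AME, and 190 rose (28.8%) and 40 fell in Con. Within 500 bp of the TSS, 193 of 686 rose in AME (28.1%) and 178 in Con (25.9%). At an adjusted p under 0.01, 216 of 925 rose in AME (23.4%) and 184 in Con (19.9%). The shares over all promoters are not given for these settings or for the fits without some libraries. Without AME-d0 replicates 1 and 3, 223 rose in AME. Leaving out each library in turn gave 293 to 325 rises and 45 to 53 falls in AME and 266 to 290 rises and 56 to 60 falls in Con, and 0 calls for AME and for the interaction.

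The mean over lncRNA promoters in AME-d21, Con-d21, AME-d0 and Con-d0 was 46.8%, 46.9%, 40.7% and 41.9% with at least 5 reads, 33.1%, 33.0%, 29.5% and 30.4% with at least 20 reads, 33.8%, 33.7%, 29.7% and 30.5% with at least 5 CpGs, 36.9%, 36.9%, 32.6% and 33.6% within 500 bp, and 44.9%, 44.9%, 39.2% and 40.3% when the starts of all coding transcripts set the distance.

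Libraries with the same replicate number did not deviate together (correlations of -0.0441 to 0.0364), and a block for the replicate number gave 296 rises and 46 falls in AME, 254 rises and 55 falls in Con, and 0 calls for AME or the interaction. Of 62 differences at named promoters, 50 were called. Over their alternatives, 1139 values kept their side of the threshold, 32 lost the call and 1, Neat1 in Con within 500 bp (-0.0556 points, adjusted p = 0.985), also changed the sign of its log ratio.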
